A study of Mus musculus with 2 samples.

Results

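Secreted and lysosomal proteases and the proteins that hold them in check were followed in Sertoli cell preparations of the mouse testis: the serpins, cystatins, cathepsins and kallikreins, with the Kazal (Spink), Kunitz (Spint) and whey acidic protein (Wfdc) inhibitors. Members were taken by the gene name on the array, and Serpina5, Cst9 and Ctsl were left out. This gave 71 probes for 61 genes, of 15208 non-control probes in all. Of the 61 genes, 47 had a probe well above background on at least 1 array and could be compared, and 14 had none.

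Serpins trap their target protease in a covalent complex after it cuts an exposed loop, and most act on serine proteases. Cystatins block papain-like cysteine proteases, the class to which most cathepsins belong. Cathepsins digest proteins in lysosomes, and Sertoli cells, which engulf dying germ cells and shed cytoplasm, are rich in lysosomes. Kallikreins are secreted trypsin- or chymotrypsin-like serine proteases whose genes, apart from plasma kallikrein, lie side by side on 1 chromosome.

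The busulphan preparation came from adult male Swiss mice, 3 months old, given 25 mg/kg busulphan, an alkylating drug widely used to empty the testis of germ cells, and was taken 1 month after the drug. The control preparation came from untreated adult male Swiss mice of the same age. In both, collagenase and hyaluronidase digests were passed through strainers of 100 and then 40 µm, the material held by the finer one was called Sertoli cells, and it was not cultured. How many animals went into a preparation is not stated in the labels. With 1 single-colour array for each preparation (n = 1 per group), no difference can be checked against replicate spread, and no test was made.

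Well above background were 12064 probes on the busulphan array and 12302 on the control array. No member spot was saturated. Signals are given on a scale on which the 75th percentile of each array equals 1000, and a log2 ratio is busulphan over control on that scale. The scanner software's own error on the log2 ratio had a median of 0.21 over the 47 members, and covers the spot only. A gene was called higher or lower at a 2-fold difference or more.

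Cell type markers differed between the preparations. Among 14 Sertoli cell markers, 13 were higher by 2-fold or more in the busulphan preparation and none was lower, and their summed signal was 133304 in busulphan and 12073 in control. The Sertoli cell label thus had its markers on both arrays, and the control array also carried abundant germ cell transcripts. Of 13 spermatid markers, all 13 were lower, with summed signals of 44042 in busulphan and 589083 in control, and 8 of the 13 ratios were bounds. Of 9 spermatocyte markers, 7 were lower and none higher, with sums of 38785 in busulphan and 214284 in control. Of 12 macrophage markers, 7 were higher and 2 lower, with sums of 8260 in busulphan and 62904 in control, and Cd163 was not well above background on either array. Most of the control sum was Aif1, at 59964 on a saturated spot, against 1359 in busulphan. In such mixed tissue, fewer cells of a type and less RNA per cell cannot be told apart.

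Of the 47 protease and inhibitor genes, 22 (46.8%) were higher in the busulphan preparation by the 2-fold rule, beside 31.3% of the 9434 genes compared on the array. Lower were 12 members (25.5%), beside 29.5% of all genes. At least 4-fold higher were 13 members and at least 4-fold lower 10, beside 14.4% and 17.7% of all genes. The members' median log2 ratio was 0.77, beside 0.07 over all genes. When the arrays were scaled to spike-in controls, 14 members were higher and 17 lower, and 1525 (16.4%) of all genes were higher and 4382 (47.1%) lower.

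The families did not share 1 pattern, and their counts are read beside the 31.3% of all genes that were higher and the 29.5% that were lower. Cathepsins had 9 of 12 compared genes higher and none lower, although Ctse, Ctsg and Ctsw were called lower with median, housekeeping, spike-in or no scaling. The 9 include Cts7, which was well above background in busulphan only. With only probes bright on both arrays, 8 cathepsins were higher. Under the main scaling the bound of Ctsw could reach only 1.83-fold lower, so it could not be called. All 3 cystatins compared were higher. Kallikreins had none of 9 higher and 6 lower. Serpins went both ways, with 10 of 19 higher (52.6%) and 5 lower (26.3%), the lower share being near that of all genes. Of the 4 Spink, Spint and Wfdc genes, 1 was lower and 3 lay within 2-fold. Grouped by family name, the serpins, cystatins, Spink, Spint and Wfdc genes together had 13 of 26 higher and 6 lower, and the cathepsins and kallikreins 9 of 21 higher and 6 lower.

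**Figure D1:**
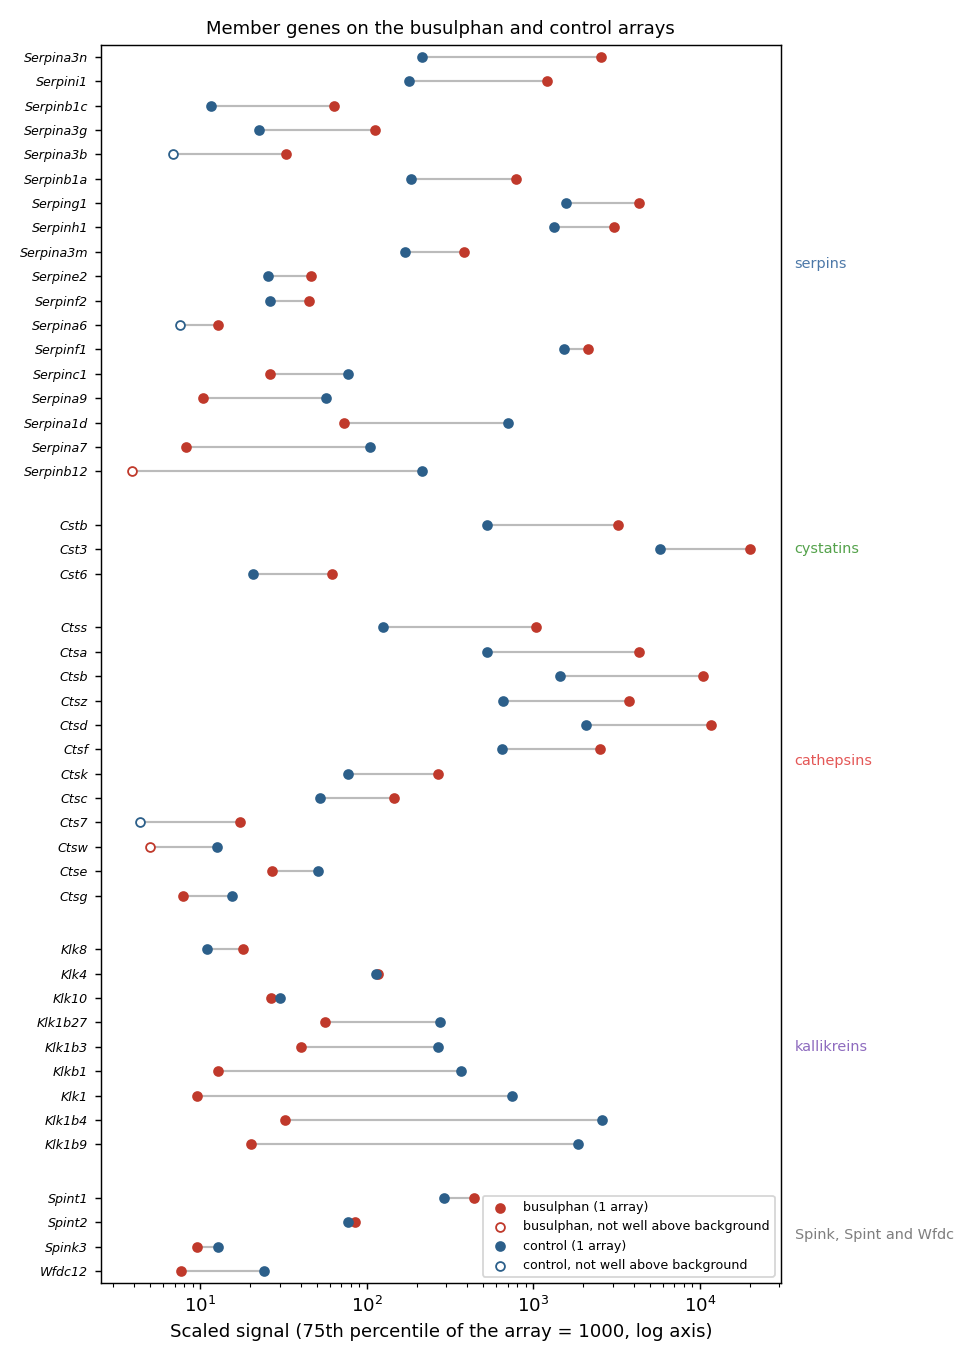
Scaled signal of 46 of the 47 member genes compared, on a log axis, with 1 red point for the busulphan array, 1 blue point for the control array and a grey line between them. Open points were not well above background. Every cystatin point pair and the upper 9 cathepsin pairs have busulphan on the right, and the Klk1 and Klk1b pairs have control far on the right.

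**Figure D2:**
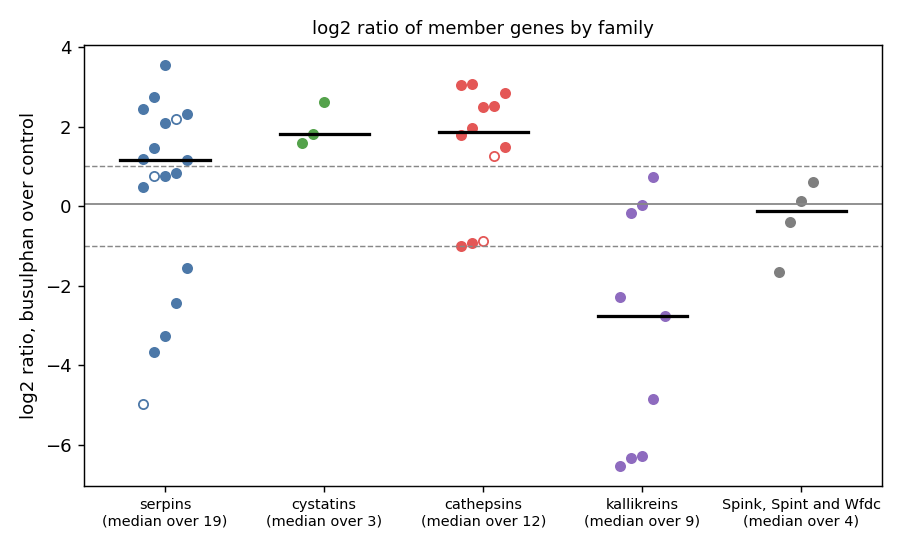
log2 ratio of busulphan over control for 46 of the 47 member genes by family, with black bars at the family medians over all genes compared, a grey line at the median of all genes (0.07) and dashed lines at the 2-fold limits of 1 and -1. Open points are bounds. The cathepsin median is 1.87 and the kallikrein median -2.75.

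The papain-like cysteine cathepsins outside the placental group were higher in 6 of 7 genes. Ctss, a protease of antigen-presenting cells, had a signal of 1042 in busulphan and 125 in control, a difference of 8.35-fold (log2 3.06, software error 0.20). Ctsb, the most widely expressed of the group, had 10443 in busulphan and 1444 in control, 7.23-fold higher. Both differences were many times the software's error, which covers the spots only and not the spread between preparations.

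Ctsz, a carboxypeptidase, had signals of 3753 in busulphan and 656 in control (5.72-fold). Ctsf, a papain-like lysosomal enzyme, had 2524 in busulphan and 651 in control (3.88-fold). Ctsk, the collagen-cleaving cathepsin best known from osteoclasts, had 266 in busulphan and 77.0 in control (3.46-fold). Ctsc, which activates granule serine proteases by trimming dipeptides, was 2.79-fold higher, at 146 in busulphan and 52.2 in control. The other, Ctsw, a cathepsin of cytotoxic lymphocytes, was not well above background in busulphan, at 5.01, and had 12.6 in control, at least 1.83-fold lower and not called, although it was called lower under 6 of the 13 processing alternatives that gave it a value.

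The cathepsins with other active sites divided. Ctsa, a serine carboxypeptidase that also stabilises lysosomal sialidase and galactosidase, had 4319 in busulphan and 524 in control, 8.24-fold higher (log2 3.04). Ctsd, the main aspartic protease of lysosomes, had 11706 in busulphan and 2081 in control, 5.63-fold higher (log2 2.49). Ctse, an aspartic protease of endosomes and immune cells, had signals of 27.0 in busulphan and 50.8 in control (log2 -0.91). Ctsg, a neutrophil granule serine protease that shares only its name with the papain-like cathepsins, had 7.83 in busulphan and 15.6 in control (log2 -0.99). Neither Ctse nor Ctsg passed 2-fold, although Ctse was called lower under 5 and Ctsg under 4 of the 14 processing alternatives.

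The placental cathepsins, a rodent gene cluster on chromosome 13, were close to background. Cts3, Cts6, Cts8, Ctsj and Ctsr were not well above background on either array. Cts7 had a signal of 17.3 in busulphan and was not well above background in control, at least 2.41-fold higher. With normexp background correction the log2 ratio of Cts7 was 0.42 and that of Ctsc 0.95, so neither was called, and with spike-in scaling Cts7, Ctsc and Ctsk were within 2-fold, at 0.39, 0.60 and 0.91.

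Several probes stood for Ctsa, Ctsb and Ctsd, and all were higher. The 3 Ctsa probes gave log2 ratios between 2.72 and 3.27. The Ctsb pair gave 2.85 and 2.48, and the Ctsd pair 2.49 and 1.68. The spread within a gene was 0.37 for Ctsb, 0.55 for Ctsa and 0.81 for Ctsd, beside software errors of 0.20 to 0.35 for these probes.

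Other lysosomal genes were mostly higher too. From a list of lysosomal genes 23 could be compared, of which 18 were higher (78.3%), 5 lay within 2-fold and none was lower. Over all genes 31.3% were higher. The median log2 ratio of the list was 1.83. These counts are for the main scaling only, and spike-in scaling moved the median of all genes by -0.91. Lgmn, legumain, had the highest ratio and processes cathepsins to their mature chains; its signal was 21643 in busulphan and 1050 in control (20.6-fold). Scarb2, a lysosomal membrane protein, was 15.5-fold and the acid ceramidase Asah1 8.66-fold higher. The lowest were Ppt1, Neu1 and Glb1, at log2 ratios of 0.04, 0.20 and 0.39. Tfeb, the transcription factor of lysosomal genes, had 44.8 in busulphan and 20.7 in control (log2 1.11). Of the Sertoli cell markers, 13 of 14 were higher. Of the 12 macrophage markers 7 were higher and 2 lower. Their summed signal was lower in busulphan, but most of the control sum of 62904 was Aif1, at 59964 on a saturated spot. The part of either cell type in the lysosomal result was not tested.

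TFEB binds a palindrome, the CLEAR element, whose core is CACGTG. RefSeq promoters of build GRCm38.p6, from 250 bases before the gene start to 50 after it, were matched for 49 of the 61 members and searched on both strands. None held the full CLEAR palindrome, which 0.37% of 27025 genes hold. The inner TCACGTGA, its own reverse complement, lay in 2 of 49, Ctsa and Ctsd, and in 1.12% of all genes. CACGTG, which lies within it, was in 3, Ctsa, Ctsd and Ctsf, and in 8.09% of all genes. No promoter was matched for Ctsb, Ctse or Ctsw. The promoters of Ctsa (chr2:164833523-164833822, plus strand) and Ctsd (chr7:142387778-142388077, minus strand) are shown, 5′ to 3′, since both genes were higher and hold the longer match, which is in capitals.
Ctsa: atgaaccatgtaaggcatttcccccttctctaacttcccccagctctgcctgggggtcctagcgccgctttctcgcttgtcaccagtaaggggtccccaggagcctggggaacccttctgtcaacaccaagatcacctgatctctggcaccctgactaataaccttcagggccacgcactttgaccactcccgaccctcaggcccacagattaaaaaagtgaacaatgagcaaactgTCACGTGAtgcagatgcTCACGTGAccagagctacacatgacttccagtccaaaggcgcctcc
Ctsd: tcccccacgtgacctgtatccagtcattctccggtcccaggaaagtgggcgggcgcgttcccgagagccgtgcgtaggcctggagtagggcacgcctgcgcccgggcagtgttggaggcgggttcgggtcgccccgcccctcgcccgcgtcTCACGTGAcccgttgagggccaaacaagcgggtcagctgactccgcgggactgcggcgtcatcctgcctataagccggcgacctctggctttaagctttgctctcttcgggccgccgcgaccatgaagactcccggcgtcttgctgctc
In Ctsa the match occurs 2 times, beginning 13 bases before and 4 bases after the start site. In Ctsd it begins 99 bases before it. These are matches of letters, not measured binding sites.

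All 3 cystatins were higher. Cst3, cystatin C, the main secreted inhibitor of cathepsins, had a signal of 20054 in busulphan and 5736 in control, 3.50-fold higher (log2 1.81). Cstb, a cytosolic inhibitor of leaked cathepsins, had 3228 in busulphan and 529 in control, 6.10-fold higher, and its second probe gave a log2 ratio of 2.44. Cst6, cystatin M/E of epithelia, had 62.2 in busulphan and 20.7 in control, 3.00-fold higher; its second probe was not well above background on either array. With spike-in scaling Cst3 and Cst6 lay within 2-fold, at log2 ratios of 0.92 and 0.70, and with normexp Cst6 was at 0.69.

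Higher serpins came from several clades. Serpina3n, a secreted acute-phase serpin, had 2539 in busulphan and 216 in control, 11.8-fold higher (log2 3.56). Its 60-base probe, at chr12:105651918-105651977 of mm9 on the plus strand, is shown because it carries this difference within a cluster of related genes.
Serpina3n: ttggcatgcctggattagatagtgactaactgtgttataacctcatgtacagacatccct

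Serpini1, neuroserpin, which inhibits tissue plasminogen activator, had 1210 in busulphan and 180 in control, 6.72-fold higher. Serpinb1a, an intracellular inhibitor of neutrophil elastase, had 782 in busulphan and 183 in control, 4.26-fold higher. Its neighbour Serpinb1c had 63.6 in busulphan and 11.6 in control, 5.47-fold higher. The Serpinb1a and Serpinb1c probes lie 41.5 kb apart on chromosome 13 and both were higher, although Serpinb1c lay at a log2 ratio of 0.93 with normexp.

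Of the Serpina3 genes, a mouse cluster on chromosome 12, all 4 on the array were higher. Beside Serpina3n, the intracellular Serpina3g had 112 in busulphan and 22.6 in control (4.96-fold). Serpina3b had 32.6 in busulphan, was not well above background in control, and was at least 4.55-fold higher. Serpina3m had 382 in busulphan and 169 in control (2.26-fold). Serpina3b was at a log2 ratio of 0.58 with normexp, and Serpina3m was within 2-fold under 5 of 14 alternatives.

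Serping1, the C1 inhibitor of the complement and contact pathways, had 4297 in busulphan and 1571 in control (2.74-fold). Serpinh1, a collagen chaperone with no protease target, had 3036 in busulphan and 1333 in control (2.28-fold). Neither passed 2-fold with spike-in scaling, where Serping1 had a log2 ratio of 0.57 and Serpinh1 of 0.31. Another 4 serpins were positive without passing 2-fold under the main scaling. These were Serpine2 (protease nexin 1, log2 0.84), Serpinf2 (antiplasmin, 0.77), Serpina6 (the corticosteroid-binding globulin, a bound of 0.75) and Serpinf1 (pigment epithelium-derived factor, 0.49).

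Lower serpins numbered 5, or 26.3% of the 19 compared, beside 29.5% of all genes. Serpinb12, an intracellular inhibitor of trypsin-like enzymes, was not well above background in busulphan, at 3.86, and had 215 in control, at least 31.1-fold lower. A second Serpinb12 probe gave a bound of at least 6.15-fold lower. Serpina7, the thyroxine-binding globulin, had 8.24 in busulphan and 104 in control, 12.6-fold lower. With normexp the sizes shrank, to a log2 ratio of -2.01 for Serpinb12 and -1.17 for Serpina7.

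Serpina1d, an antitrypsin, had 72.8 in busulphan and 703 in control, 9.65-fold lower. In the files its probe is assigned to transcripts of 3 genes, Serpina1c, Serpina1d and Serpina1e, which it cannot separate. Serpina9, named centerin from germinal centre B cells, had 10.4 in busulphan and 56.7 in control, 5.45-fold lower. Serpinc1, antithrombin, had 26.3 in busulphan and 77.5 in control, 2.94-fold lower, and its other probe gave a log2 ratio of -0.99. With normexp Serpina9 and Serpinc1 lay within 2-fold, at -0.64 and -0.62. All 13 spermatid markers were lower in the same preparation, and their part in these results was not tested.

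Serpina12, Serpinb7, Serpinb11 and Serpind1 were not well above background on either array. On chromosome 12, Serpina1d and Serpina9 were lower and the 4 Serpina3 genes, further along the same cluster, were higher. Serpina6, on the other side of Serpina1d, had a positive bound (log2 0.75) and was not called.

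A list of serine proteases and plasminogen system genes also holds receptors and cofactors, such as Plaur and F3. Of its 22 genes compared, 9 were higher (40.9%) and 6 lower (27.3%), beside 31.3% and 29.5% of all genes. Their median log2 ratio was 0.06. The highest were Plau, the urokinase plasminogen activator (281 in busulphan and 15.03 in control, 18.7-fold), F3, tissue factor (12.7-fold), and Plaur, the urokinase receptor (771 in busulphan and 66.8 in control, 11.55-fold). Plat, tissue plasminogen activator, had 4497 in busulphan and 540 in control (8.33-fold). The lowest were F10, coagulation factor X (37.2-fold lower), Prss21, a testis serine protease (28.9-fold lower), and Tmprss2, a transmembrane protease (23.3-fold lower).

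Inhibitors outside the rule did not share 1 direction. Of 13 compared, 5 were higher (38.5%) and 4 lower (30.8%), not far from the 31.3% and 29.5% of all genes. Their median log2 ratio was -0.26. The highest were the metalloprotease inhibitor Timp1 (20.2-fold), the plasma cystatin relative Ahsg (12.1-fold) and the inter-alpha inhibitor chain Itih3 (4.68-fold). The lowest were Ambp, the precursor of bikunin (35.4-fold lower), Cast, the calpain inhibitor calpastatin (24.7-fold lower), and Papln, papilin (at least 9.79-fold lower).

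Kallikreins separated by gene group. All 5 compared genes of the Klk1 and Klk1b group, the tissue kallikrein and its rodent copies, were lower in the busulphan preparation. Their median log2 ratio was -6.28. Among them, Klk1b3 was read by a probe also assigned to Klk1, Klk1b9 and Klk1b16. None of the 3 compared kallikrein-related genes passed 2-fold under the main scaling, and they were dimmer in control, at 10.9 to 113. Klk1b9, an EGF-binding kallikrein, had 20.1 in busulphan and 1851 in control, 92.0-fold lower (log2 -6.52, software error 0.23). Klk1b4, which contributes the alpha subunit of the 7S nerve growth factor complex, had 32.0 in busulphan and 2593 in control, 80.9-fold lower. Klk1, tissue kallikrein, which releases kinins, had 9.53 in busulphan and 740 in control, 77.7-fold lower.

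The other compared members of the group were lower by less. Klk1b3, the gamma subunit of the same complex, had 40.0 in busulphan and 269 in control, 6.73-fold lower, on its shared probe. Klk1b27, described in mouse Leydig cells, had 56.3 in busulphan and 276 in control, 4.90-fold lower. Klk1b1 and Klk1b11 were not well above background on either array. The 5 calls held under all 14 alternatives, with sizes that shrank under normexp, where Klk1 was at a log2 ratio of -3.41, Klk1b9 at -4.63 and Klk1b4 at -4.83.

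Since these genes are related copies, some of their probes are shown, each 60 bases, 5′ to 3′. Capitals mark the bases at which Klk1 and Klk1b4, or Klk1b27 and Klk1b11, differ where the pair overlaps.
Klk1: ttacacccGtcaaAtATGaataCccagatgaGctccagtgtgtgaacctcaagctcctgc
Klk1b4: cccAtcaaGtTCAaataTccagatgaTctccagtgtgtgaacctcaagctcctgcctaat
Klk1b27: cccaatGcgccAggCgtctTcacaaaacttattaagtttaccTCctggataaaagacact
Klk1b11: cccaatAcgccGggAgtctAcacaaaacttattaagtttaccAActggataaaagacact
Klk1b9: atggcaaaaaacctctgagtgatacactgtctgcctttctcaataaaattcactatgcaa
On mm9, plus strand, they lie at chr7:51484170-51484325 (Klk1), chr7:51466302-51466457 (Klk1b4), chr7:51311959-51312018 (Klk1b27), chr7:51255119-51255178 (Klk1b11) and chr7:51235681-51235740 (Klk1b9). The Klk1 and Klk1b4 probes each span 156 bases of genome, more than their 60 bases. Over an overlap of 55 bases they share 48, and how far each detects the other's transcript was not tested.

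The Klk1b27 and Klk1b11 probes share 54 of 60 bases. Only the Klk1b27 probe was well above background, and how far either detects the other's transcript was not tested. Among all 2485 pairs of member probes, only these pairs passed a minimum of 20 more identical than differing bases. Probes were compared with each other and not with transcripts, so this does not show that the other probes are specific to their genes. The Klk1b3 probe is assigned in the files to transcripts of 4 genes, Klk1, Klk1b3, Klk1b9 and Klk1b16, and is no independent measure of Klk1b3.

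The kallikrein-related genes lie in the same locus. Klk8, neuropsin, had 18.0 in busulphan and 10.9 in control (log2 0.73). Its control signal was too near the busulphan floor of 6.91 for a 2-fold lower call to be possible. Klk4, the enamel protease, had 116 in busulphan and 113 in control (log2 0.04). Klk10 had 26.7 in busulphan and 30.1 in control (log2 -0.17), and was called lower with spike-in scaling, at -1.05. Klk6, Klk7 and Klk11 were not well above background on either array. Along chromosome 7 the lower genes stood at 1 end, between Klk1b9 and Klk1, and the kallikrein-related genes at the other.

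**Figure D3:**
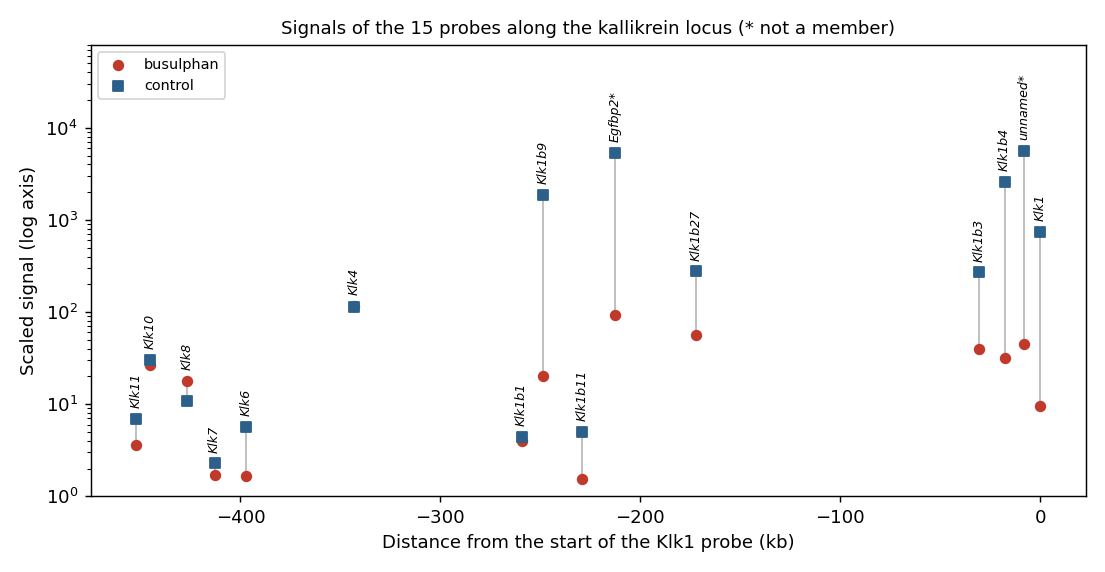
Scaled signal, on a log axis, of the 15 probes in the kallikrein locus against their distance in kb from the start of the Klk1 probe, with red circles for busulphan and blue squares for control. Klk11, Klk7, Klk6, Klk1b1 and Klk1b11 were not well above background on either array, and an asterisk marks a probe that is no member. Control lies far above busulphan for Klk1b9, Klk1b4 and Klk1, and the 2 points nearly coincide for Klk4 and Klk10.

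Klkb1, plasma prekallikrein, stands apart from the locus, on chromosome 8, and is a contact-phase protease mainly of the liver. It had 12.7 in busulphan and 366 in control, 28.8-fold lower (log2 -4.85, software error 0.27). With normexp its log2 ratio was -2.49. Markers of Leydig cells, where tissue kallikreins have been described, were 1 of 6 higher, 1 lower and 4 within 2-fold, with summed signals of 3107 in busulphan and 1142 in control and a median log2 ratio of -0.07. Star made up most of the busulphan sum, at 2257 in busulphan and 193 in control, and Lhcgr was not well above background on either array. Spermatid markers were lower in all 13 genes. The part of either cell type in the kallikrein result was not tested.

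Of the remaining inhibitors, Wfdc12, a whey acidic protein inhibitor, had 7.64 in busulphan and 24.05 in control, 3.15-fold lower, but its log2 ratio was -0.19 with normexp. Spint1, the Kunitz inhibitor of hepatocyte growth factor activator, had 442 in busulphan and 291 in control (log2 0.60), and its second probe gave 0.53. Spint2, its relative, had 84.6 in busulphan and 76.6 in control (log2 0.14). Spink3, a Kazal trypsin inhibitor of the pancreas and male tract, now named Spink1, had 9.58 in busulphan and 12.7 in control (log2 -0.41).

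**Figure D4:**
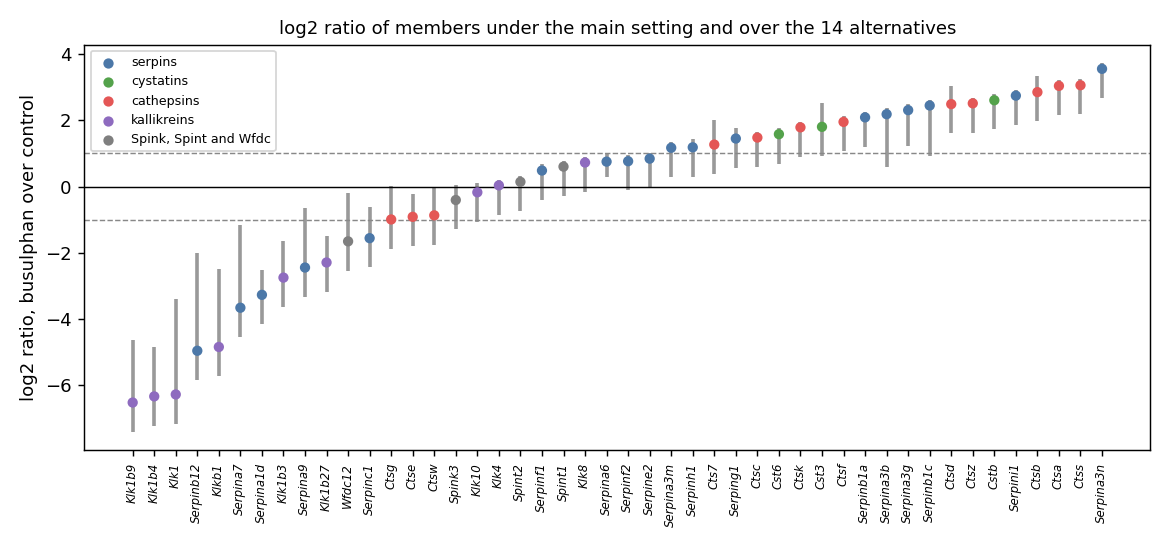
log2 ratio of busulphan over control of 46 of the 47 member genes, coloured by family, with grey bars from the lowest to the highest value over the main setting and the 14 alternatives and dashed lines at 1 and -1. Points of Serpina3n, Ctss and Ctsa stay above 1 and those of Klk1, Klk1b4 and Klk1b9 stay below -1 over their whole bars.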

How the data were processed

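Expression was measured in 2 Sertoli cell preparations on 1 array each, grouped by the labels' treatment. The authors' deposited intensity values are processed signals of Agilent's Feature Extraction software, version 11.5.1.1 in the headers, with spatial and multiplicative detrending and surrogate values for dim spots switched on, per the file headers. Both arrays carry the same scan time, and each preparation and labelling belongs to 1 group, so these cannot be told apart from treatment. The deposited log2 table equals log2 of these signals minus a constant of 9.82 for busulphan and 10.03 for control. Its medians were -2.77 for busulphan and -2.94 for control.

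Signals were divided by each array's 75th percentile over non-control probes, 905 in busulphan and 1046 in control, and set to 1000 there. The 4 outlier-flagged probes, none of them a member's, were left out. Each gene was represented by its probe of highest mean log2 level, among those well above background on at least 1 array. Where a probe was well above background on 1 array only, the ratio is a bound against the higher of its own signal and the array's lowest signal well above background (6.91 in busulphan, 7.17 in control), written as at least so many fold; 5 members carry one. Probes other than members were renamed through RefSeq accessions of GRCm38.p6 where matched (13300 probes matched in all). Probe positions are the files' own, on mm9, which do not state exon or untranslated region. No genome sequence was used here beyond RefSeq's promoter table of GRCm38.p6.

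Any member could be named; full values were given for those at least 4-fold changed, those with a bound and the extremes of each family. Of pathway lists the 3 highest and 3 lowest were named, and Tfeb and Plat were named after their values were seen. Values of 1 member are not reported here, and it stays in all counts and medians. The members and lists were chosen with earlier results of these data known. The calling step was run on simulated data in which few probes were changed, all of them bright. Such data do not show how well calls hold for dim members or where many genes differ. Python 3.11.15, pandas 2.3.3, R 4.3.3 and limma 3.58.1 were used. Alternatives were normexp (offset 50), 7 other scalings, 2 other filters on dim probes, saturated probes left out, measured values for bounds, the median over probes, the deposited table and limits of 1.5-fold and 4-fold. The number of arrays limits the precision.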

Additional observations from a re-analysis of the deposited data

How the results depend on the processing

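No replicate could be left out and no paired analysis was possible because each group has 1 array. Of 34 called members, 21 kept their call under every alternative that gave them a value (12 higher, 9 lower). That was all 14 alternatives, except that Serpinb12 had a value under 13. The other 13 called members were within 2-fold under at least 1 alternative, and none of the 34 changed sign. The 5 lower Klk1 and Klk1b genes were lower under each of the 14, and 6 to 10 cathepsins were higher. Scaling to spike-in controls moved the median of all genes by -0.91, and the members' median became -0.077, with 14 members higher. The members' median was 0.42 with normexp, 0.54 with housekeeping scaling and 0.50 with no filter on dim probes. The members' median minus that of all genes was 0.70 as reported, 0.77 with spike-in and 0.71 with housekeeping scaling, 0.53 with no filter and 0.27 with normexp. Under normexp, whose offset shrinks dim spots, 16 members were higher and 9 lower, beside 25.1% and 23.1% of all genes. A limit of 4-fold left 13 higher. Dim members, those with scaled signals near the floor, are the least certain in size.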

Other observations

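A pair of probes in the kallikrein locus fell outside the gene name rule and were named after their values were seen. Egfbp2, an EGF-binding protein of the same gene group whose probe the files also assign to Klk1b26, had 93.3 in busulphan and 5288 in control, 56.6-fold lower. An unnamed probe at 51476018 to 51476076 of chromosome 7 (mm9), between the Klk1b4 and Klk1 probes, had 45.4 in busulphan and 5578 in control, 123-fold lower (log2 -6.94).

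The families also differed in the base makeup of their RefSeq promoters. The 8 matched cathepsins other than the placental group held a median of 11.75 CpG pairs in 300 bases, the 7 Klk1 and Klk1b genes 2, and all 27025 genes 7. The median GC content was closer, at 58.7% for these cathepsins, 56.0% for the Klk1 and Klk1b genes and 52.8% for all genes. This was noticed in the data and describes the promoters only.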
